A study of Mus musculus with 9 samples.

Results

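Gene expression was compared between mouse cells labelled as overexpressing S100A8 with a point mutation at residue 69 (OEA8_69) and cells labelled as overexpressing S100A8 with a point mutation at residue 67 (OEA8_67). Both constructs change the same protein only 2 codons apart, and the comparison asks what separates the transcriptomes of the 2 mutants. The 6 libraries, 3 per mutant, belong to a set of 9, of which the other 3 are an overexpression control (OEA8_Ctrl) that entered the model of the spread and is shown beside the mutants. Levels are in FPKM, the number of sequenced fragments of a gene divided by its transcript length and by the fragments mapped in the library. The comparison takes every gene whose mean over the 6 mutant libraries reached 0.5 FPKM, which gave 11990 of 19240 genes. At this limit, H4c4 and Macrod2 at a mean of 0.50 FPKM were just inside and Itgb4 at 0.497 FPKM was just outside. The labels call the cells hematopoietic stem cells, whereas the study's results place the RNA-seq of these mutants in mouse embryonic fibroblasts. Its methods describe lentiviral infection of both cell types and selection with puromycin. The labels call OEA8_Ctrl an overexpression control without naming its construct, while the text of the study sets the mutants against cells that overexpress unmutated S100A8. The labels also do not give the substituted amino acids or the promoter of the constructs. Separate cultures are not stated for the replicates, and the p-values therefore describe the spread among these libraries alone, part or all of which may be technical.

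S100A8 belongs to the S100 family of small calcium sensors, pairs with S100A9 and is stored in large amounts by neutrophils and monocytes. It binds calcium through EF-hand motifs, helix-loop-helix folds whose loop residues hold the ion, and it can act inside cells on the cytoskeleton or outside them as an alarm signal to receptors of innate immunity. Fibroblasts answer such signals with chemokines, acute-phase proteins and matrix-degrading enzymes, and they build the extracellular matrix from collagens, small proteoglycans and matricellular proteins.

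The study named the residues N67 and E69 from the docking of glycyrrhizic acid onto the protein. The coding stretch that holds both is shown because the compared constructs differ there. It lies in exon 3 of 3 of S100a8 on the plus strand, chr3:90669872-90669907 of GRCm38 (the reference transcript of GENCODE M21), and covers codons 59 to 70. Capitals mark codon 67 (AAC, chr3:90669896-90669898) and codon 69 (GAG, chr3:90669902-90669904) of the unmutated gene.
S100a8 codons 59 to 70: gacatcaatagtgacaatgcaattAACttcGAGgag

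S100a8 itself was low in all libraries. It stood at 3.75, 6.24 and 5.44 FPKM in OEA8_69, against 5.95, 4.54 and 6.24 FPKM in OEA8_67. The ranges of the mutants overlapped, and the log2 difference was -0.11 ± 0.16 (SE; adjusted p = 0.760). In OEA8_Ctrl it stood at 4.1, 3.98 and 6.0 FPKM, within the same range. These levels do not bear out the overexpression that the labels give, and no library of cells without a construct was analysed here. A gene-level value does not show which codon the reads carry, so the labels could not be checked at the mutation itself. S100a9, the partner of S100a8, was listed at 0 in all 6 mutant libraries. Of the 11 S100 family genes tested, 0 were called, and S100a6, S100a4 and S100a11, the abundant members, differed by 0.06, 0.02 and 0.02 on the log2 scale.

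The libraries of both mutants carried fibroblast markers. Of 20 such markers, 19 averaged at least 1 FPKM over the 6 libraries, and their summed level was 8038 to 8168 FPKM in OEA8_69, against 7555 to 7744 FPKM in OEA8_67. Ptprc (the pan-leukocyte antigen CD45) and Kit (CD117, the stem cell factor receptor), which define hematopoietic stem cells, were at or below 0.03 FPKM in every mutant library, while Col1a1, the main fibrillar collagen chain, averaged 1101 ± 26.6 FPKM in OEA8_69 and 1010.5 ± 38.8 FPKM in OEA8_67 (SD, n = 3 each). The 24 hematopoietic markers summed to 237 to 245 FPKM in OEA8_69, against 225 to 237 FPKM in OEA8_67, and 0 of the 9 tested were called. Of the 24, 9 averaged at least 1 FPKM over the 6 libraries, and the median marker was at 0.0575 FPKM. FPKM summed to 482020 to 492977 per OEA8_69 library, against 469909 to 477442 per OEA8_67 library, and 15800 to 16179 genes per library were above 0. The smallest value above 0 was 0.01 FPKM in every library, the rounding step of the table, so the depth of the libraries is unknown.

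The 2 mutants differed in 379 of 11990 genes at an adjusted p under 0.05 (3.16%), of which 226 were higher in OEA8_69 (1.88%) and 153 lower (1.28%). Most differences were small. The median size of a called difference was 0.31 on the log2 scale among the higher genes and 0.26 among the lower genes, and Cyp2f2 alone exceeded 1. Differences are on the scale of log2(FPKM + 1), which understates the change of low genes. Without regard to the test, the 3 libraries of each mutant did not overlap in 3779 genes (31.5%), with OEA8_69 above in 14.7% and below in 16.9% of all genes. Pearson correlations of the log2 values across genes, which are not independent replicates, were 0.9968 to 0.9973 between libraries of OEA8_69, 0.9970 to 0.9973 between libraries of OEA8_67 and 0.9953 to 0.9964 between the mutants. The number of calls depended on single libraries. It was 1025 without OEA8_Ctrl replicate 3. It was 146, 122 and 139 without OEA8_67 replicates 1, 2 and 3, and 125, 162 and 178 without OEA8_69 replicates 1, 2 and 3. The fit of the 6 mutant libraries alone called 977 genes, which included all 379. Of the 379 genes, 101 were called without each of the 9 libraries in turn (68 higher and 33 lower), and these are called lasting below. Where neither this word nor the fits that lost a call are given, whether that call was lasting is not stated.

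**Figure D1:**
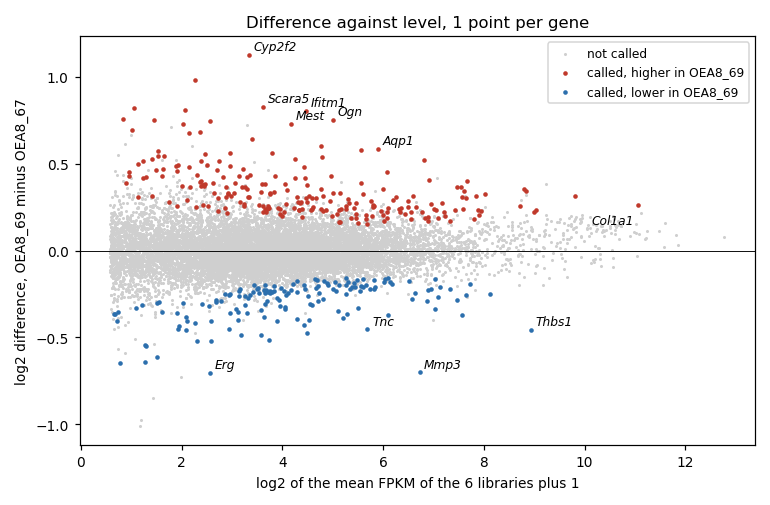
Each point is 1 of the 11990 genes, with the log2 of its mean FPKM plus 1 over the 6 mutant libraries on the horizontal axis and its log2 difference, OEA8_69 minus OEA8_67, on the vertical axis; red points are the 226 genes called higher, blue points the 153 called lower. The cloud lies around a median of -0.0016, and called genes occur at all levels, with Cyp2f2 at 1.13 at the top and Mmp3 and Erg at -0.70 among the lowest of the called genes.

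The largest increase was in Cyp2f2, a cytochrome P450 enzyme. It stood at 13.9, 13.2 and 11.3 FPKM in OEA8_69, against 5.76, 5.4 and 4.81 FPKM in OEA8_67. The groups were well apart, with a log2 difference of 1.13 ± 0.08 (SE), adjusted p = 3.27e-05, a 2.41-fold ratio of the means, and OEA8_Ctrl lay between them at 7.54 to 8.17 FPKM. Scara5, a scavenger receptor that takes up ferritin and is a marker of fibroblast subsets, stood at 15.02, 15.1 and 13.96 FPKM in OEA8_69, against 7.96, 7.53 and 7.99 FPKM in OEA8_67. Every OEA8_69 library was above every OEA8_67 library here too (log2 difference 0.83 ± 0.06 SE, adjusted p = 3.27e-05). Aqp1, a water channel, was among the tightest differences at 71.8, 70.98 and 68.7 FPKM in OEA8_69, against 45.7, 46.9 and 47.3 FPKM in OEA8_67. Its log2 difference was 0.59 ± 0.04 (SE), adjusted p = 2.30e-05, and the OEA8_Ctrl libraries, at 43.0 to 44.9 FPKM, lay just below those of OEA8_67. Mest, a paternally expressed imprinted gene, averaged 21.5 ± 1.09 FPKM in OEA8_69 and 12.6 ± 1.07 FPKM in OEA8_67 (log2 difference 0.73 ± 0.08 SE, adjusted p = 0.000724). Osr2, a transcription factor of limb and palate mesenchyme, averaged 11.8 ± 0.354 FPKM in OEA8_69 and 7.21 ± 0.907 FPKM in OEA8_67 (log2 difference 0.64 ± 0.09 SE, adjusted p = 0.00296). These 5 genes were lasting calls. They lie on different chromosomes, apart from Aqp1 and Mest, which are both on chromosome 6 (Cyp2f2 at chr7:27119955-27133660, Scara5 at chr14:65666403-65764826, Aqp1 at chr6:55336299-55348555, Mest at chr6:30733506-30748466 and Osr2 at chr15:35296098-35303305, GRCm38.p6).

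The largest decreases were in Erg and Mmp3. Erg, an ETS transcription factor of endothelial cells and hematopoietic stem cells, stood at 3.17, 3.48 and 3.88 FPKM in OEA8_69, against 5.56, 6.87 and 6.62 FPKM in OEA8_67. Its log2 difference was -0.70 ± 0.08 (SE), adjusted p = 0.000724, and both mutants were far below OEA8_Ctrl, which stood at 42.03, 42.4 and 43.9 FPKM. Mmp3 (stromelysin-1, a secreted matrix metalloproteinase of stromal cells) stood at 80.3, 82.3 and 76.01 FPKM in OEA8_69, against 131, 126 and 132 FPKM in OEA8_67. The 3 libraries of each mutant were close to each other and far from those of the other, with a log2 difference of -0.70 ± 0.05 (SE), adjusted p = 2.30e-05, and OEA8_Ctrl was higher still at 155 to 168 FPKM. Thbs1, the matricellular protein thrombospondin-1 that activates latent TGF-beta, was the most abundant of the leading genes at 414, 383 and 433 FPKM in OEA8_69, against 562, 565 and 558 FPKM in OEA8_67 (log2 difference -0.46 ± 0.06 SE, adjusted p = 0.00209). Gask1b, a Golgi-associated kinase-like protein, averaged 3.89 ± 0.181 FPKM in OEA8_69 and 6.03 ± 0.0458 FPKM in OEA8_67 (log2 difference -0.52 ± 0.06 SE, adjusted p = 0.000724). Cd24a, a small surface glycoprotein, averaged 9.93 ± 0.407 FPKM in OEA8_69 and 14.6 ± 1.13 FPKM in OEA8_67 (log2 difference -0.51 ± 0.07 SE, adjusted p = 0.00219), and here OEA8_Ctrl, at 8.96 ± 0.688 FPKM, was closer to OEA8_69. Cnn1 (calponin, an actin-binding protein of smooth muscle), Sema3c (a secreted guidance cue) and Slco4a1 (an organic anion transporter) fell by 0.49, 0.48 and 0.43 on the log2 scale. All of these were lasting calls. Dhrs3, which reduces retinal to retinol, and Lce1g, a cornified envelope gene with close paralogs, completed the 12 largest decreases at -0.45 and -0.41. Each lost its call without 6 of the 9 libraries taken out singly. For Dhrs3 these were all 6 mutant libraries (adjusted p up to 0.146, without OEA8_67 replicate 2), and for Lce1g they were OEA8_Ctrl replicate 2 and the mutant libraries other than OEA8_67 replicate 1 (adjusted p up to 0.159, without OEA8_67 replicate 3).

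**Figure D2:**
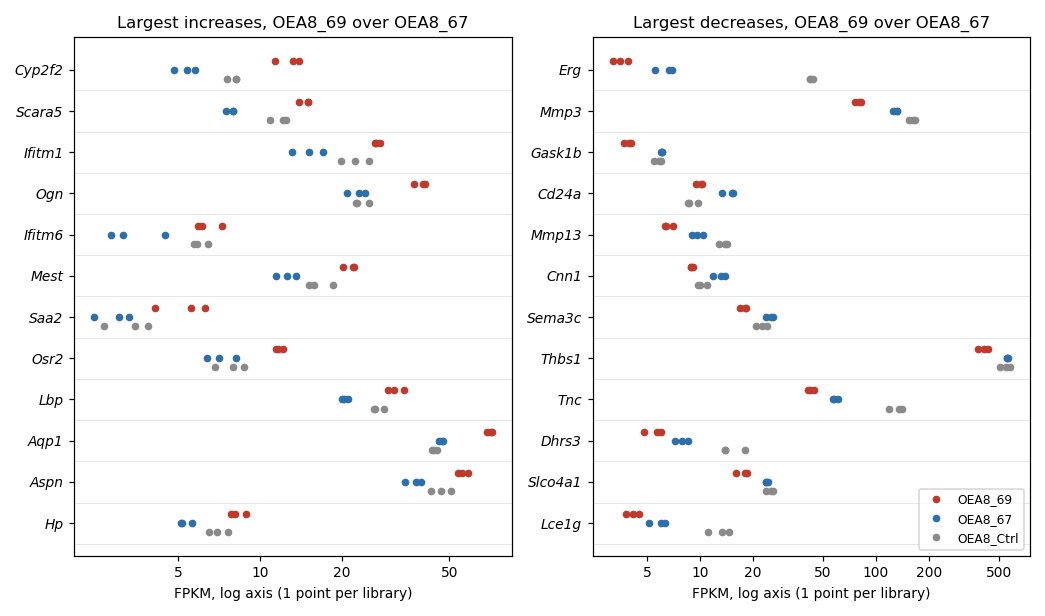
FPKM on a log axis for the 12 largest increases (left) and 12 largest decreases (right) among called genes whose higher mutant reached 5 FPKM, 1 point per library, with OEA8_69 in red above OEA8_67 in blue and OEA8_Ctrl in grey. The red and blue points of a gene do not overlap, which was a condition of the choice, and the grey points lie between them for Cyp2f2, Scara5 and Lbp, near the blue ones for Ogn and Aqp1, and far to the right of both for Erg.

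Genes of the extracellular matrix were called in both directions. The 25 tested genes for matricellular and glycan matrix proteins, which bind collagen, growth factors or cells without building fibrils themselves, had 11 members higher and 3 lower in OEA8_69, with a median log2 difference of 0.23 beside -0.0016 over all genes. Among the higher members were 5 small leucine-rich proteoglycans. Of these, Ogn and Aspn lie close together on chromosome 13 (chr13:49608015-49624501 and chr13:49544443-49567565, GRCm38.p6). Ogn (osteoglycin), the clearest, stood at 40.8, 39.8 and 36.9 FPKM in OEA8_69, against 24.4, 20.9 and 23.2 FPKM in OEA8_67. The groups were far apart, and the log2 difference was 0.75 ± 0.06 (SE), adjusted p = 0.000141. Aspn (asporin) averaged 55.9 ± 2.48 FPKM in OEA8_69 and 37.1 ± 2.56 FPKM in OEA8_67 (log2 difference 0.58 ± 0.07 SE, adjusted p = 0.00105), Fmod (fibromodulin) averaged 24.1 ± 0.711 FPKM in OEA8_69 and 17.8 ± 0.803 FPKM in OEA8_67 (log2 difference 0.42 ± 0.05 SE, adjusted p = 0.00123), and Omd (osteomodulin) averaged 3.303 FPKM in OEA8_69 and 2.08 FPKM in OEA8_67 with a log2 difference of 0.48. Dcn (decorin), the most abundant of the family here, averaged 206 ± 8.83 FPKM in OEA8_69 and 174 ± 4.55 FPKM in OEA8_67 (log2 difference 0.24 ± 0.04 SE, adjusted p = 0.0124), a call that was lost without OEA8_67 replicate 2, OEA8_67 replicate 3 or OEA8_69 replicate 1 (adjusted p up to 0.0746). Beside the proteoglycans, Tgfbi, an integrin-binding matrix protein induced by TGF-beta, rose tightly at 139, 135 and 136 FPKM in OEA8_69, against 105, 99.8 and 104 FPKM in OEA8_67 (log2 difference 0.41 ± 0.04 SE, adjusted p = 0.000221). No library of one mutant came near the range of the other.

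The 3 lower members of that list were Thbs1, Tnc and Cd44. Tnc (tenascin-C, a large adhesion-modulating glycoprotein of injured tissue) stood at 42.1, 41.05 and 44.5 FPKM in OEA8_69, against 56.9, 61.2 and 57.9 FPKM in OEA8_67. Its log2 difference was -0.45 ± 0.06 (SE), adjusted p = 0.00224, and both mutants were far below OEA8_Ctrl at 119 to 140.3 FPKM. Cd44, the hyaluronan receptor, averaged 59.97 FPKM in OEA8_69 and 68.1 FPKM in OEA8_67 with a log2 difference of -0.18. Counts for the list were 8 to 16 higher and 2 to 3 lower when single libraries were left out, with 16 higher without OEA8_Ctrl replicate 3. The summed fibroblast markers given above, which include Dcn and Postn of this list, were also higher in every OEA8_69 library, and their part in these differences was not tested.

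The list of interstitial collagens and fibril genes, which also holds fibre-associated glycoproteins and enzymes that process collagen, had 6 members higher and 1 lower of 38 tested, with a median of 0.10. Col8a2, a network-forming collagen chain, was the clearest at 6.87, 7.01 and 6.89 FPKM in OEA8_69, against 4.43, 4.59 and 4.61 FPKM in OEA8_67 (log2 difference 0.52 ± 0.06 SE, adjusted p = 0.000796). Fbln1 (fibulin-1, a fibre-associated glycoprotein) stood at 76.9, 78.7 and 75.2 FPKM in OEA8_69, against 55.97, 55.8 and 56.1 FPKM in OEA8_67 (log2 difference 0.45 ± 0.05 SE, adjusted p = 0.000843). The OEA8_67 libraries of both genes lay close together, well below those of OEA8_69. Adamts2, which removes the amino-terminal propeptide of procollagens, averaged 9.35 ± 0.2101 FPKM in OEA8_69 and 7.04 ± 0.0945 FPKM in OEA8_67 (log2 difference 0.36 ± 0.05 SE, adjusted p = 0.00263). The other higher members were Col6a2, Col3a1 and Mfap2, and the lower one was Col8a1. Adamts2, Col8a2 and Fbln1 were lasting calls, none of them a fibril-forming collagen, and 3 were also the count without any single mutant library, whereas 11 were higher without OEA8_Ctrl replicate 3. Basement membrane genes did not share the direction: of 22 tested, Nid2 (nidogen-2) was higher, and Col4a1 and Col4a2, which share a promoter and form the collagen IV trimer, were lower. Col4a1 stood at 156, 159 and 163 FPKM in OEA8_69, against 195, 196 and 191 FPKM in OEA8_67. All OEA8_69 libraries were below all OEA8_67 libraries, the log2 difference was -0.28 ± 0.04 (SE), adjusted p = 0.00385, and OEA8_Ctrl was higher than both at 233 to 250.5 FPKM. The call of Col4a1 was lasting. Col4a2 (-0.22) was lost without OEA8_67 replicate 1, OEA8_67 replicate 2, OEA8_69 replicate 1 or OEA8_69 replicate 2 (adjusted p up to 0.116), and Nid2 (0.31) without any of the 6 mutant libraries (up to 0.0983).

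Matrix-degrading enzymes and their inhibitors split as well. Of 29 tested, 3 were higher and 4 lower, with a median of -0.02. The lower members included Mmp3, Mmp13 and Mmp10. Of these, Mmp3 and Mmp13 lie near each other on chromosome 9 (chr9:7445822-7455975 and chr9:7272514-7283333, GRCm38.p6). Mmp13 (collagenase-3, which cleaves fibrillar collagen) stood at 7.03, 6.34 and 6.39 FPKM in OEA8_69, against 10.3, 8.96 and 9.57 FPKM in OEA8_67. Its groups did not overlap and its log2 difference was -0.49 ± 0.06 (SE), adjusted p = 0.00224. Mmp10 (stromelysin-2, a close relative of Mmp3 whose reads may be shared with it) was low and averaged 0.893 FPKM in OEA8_69 and 1.93 FPKM in OEA8_67 with a log2 difference of -0.64. The OEA8_Ctrl libraries were above both mutants for Mmp3 and Mmp13. The higher members included Mmp2 (gelatinase A), which averaged 567 ± 12.3 FPKM in OEA8_69 and 483 ± 21.4 FPKM in OEA8_67, and Serpine2 (protease nexin-1, an inhibitor of thrombin and plasmin), which averaged 185 ± 0.755 FPKM in OEA8_69 and 157 ± 2.405 FPKM in OEA8_67 (log2 difference 0.23 ± 0.04 SE, adjusted p = 0.00673). Mmp3, Mmp13 and Serpine2 were lasting calls. Mmp2 (0.23) was lost without OEA8_67 replicate 2 or 3 or any OEA8_69 library (adjusted p up to 0.106), and 1 member of the list was then counted higher in each of these 5 fits.

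The promoters of Mmp3 and Mmp13 are shown because these enzymes were among the 12 largest decreases and both carry the letters of an AP-1 site, the motif bound by Fos and Jun family dimers. The stretches are the 150 bases before the RefSeq start of each gene on the plus strand of GRCm38.p6, at chr9:7445672-7445821 for Mmp3 and chr9:7272364-7272513 for Mmp13. Capitals mark the match to TGANTCA, searched on both strands, which begins at position -46 in Mmp3 and -35 in Mmp13.
Mmp3: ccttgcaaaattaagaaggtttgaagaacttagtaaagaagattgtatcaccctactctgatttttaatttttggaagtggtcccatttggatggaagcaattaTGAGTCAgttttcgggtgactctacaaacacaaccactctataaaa
Mmp13: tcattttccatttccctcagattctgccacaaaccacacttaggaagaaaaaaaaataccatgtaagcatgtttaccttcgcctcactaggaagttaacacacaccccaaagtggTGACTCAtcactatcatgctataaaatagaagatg
In the RefSeq promoter windows (250 bases before to 50 after the start), the motif was found in 588 of 9628 tested genes with a window (6.11%), in 14 of 127 genes called lower (11.02%) and in 12 of 176 genes called higher (6.82%). The 14 lower genes included Mmp3, Mmp13, Mmp10, Itga3, Lif, Gask1b and Ctla2a, and the 12 higher genes included F3 and Osgin1. These matches describe letters and not binding, and the difference between the shares was not tested.

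**Figure D3:**
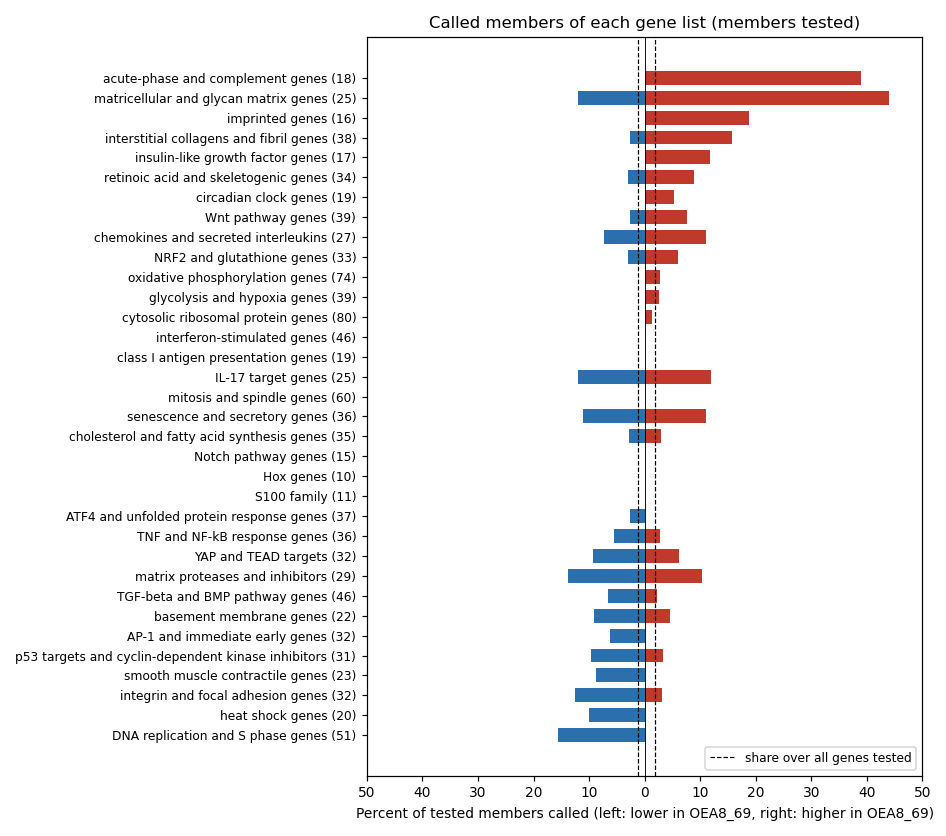
Percent of the tested members of each list that were called higher (right, red) or lower (left, blue) in OEA8_69, for the pathway lists with at least 10 tested members, whose number stands in parentheses, without the list chosen from the comparisons with OEA8_Ctrl; dashed lines mark the shares over all genes, 1.88% and 1.28%. Of the lists drawn, acute-phase and matricellular genes reach farthest to the right, DNA replication genes farthest to the left, and interferon, class I, mitosis, Notch, Hox and S100 genes have no bar.

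Genes of the AP-1 family and of immediate early responses had 0 higher and 2 lower members among 32 tested, with a median of 0.03. The lower ones were Fosl1 (Fra-1, a Fos family subunit of AP-1) and Ccn2 (connective tissue growth factor). Fosl1 stood at 17.5, 19.7 and 19.8 FPKM in OEA8_69, against 25.2, 27.2 and 23.7 FPKM in OEA8_67 (log2 difference -0.40 ± 0.07 SE, adjusted p = 0.007596). All libraries of OEA8_69 were below those of OEA8_67. Fos and Junb were not called (0.18 and 0.15). Ccn2 stood at 122, 124 and 123 FPKM in OEA8_69, against 144, 153 and 147 FPKM in OEA8_67 (log2 difference -0.27 ± 0.04 SE, adjusted p = 0.00396), again without overlap. Both were lasting calls, and 3 members were higher without OEA8_Ctrl replicate 3. Among 32 targets of YAP and TEAD, which transmit mechanical tension, Ccn2, Crim1 and Ankrd1 were lower and F3 (tissue factor) and Foxf2 (a forkhead factor) were higher, with a median of -0.07. Crim1, a membrane protein that binds BMPs, averaged 39.2 ± 1.59 FPKM in OEA8_69 and 49.5 ± 0.758 FPKM in OEA8_67 (log2 difference -0.33 ± 0.05 SE, adjusted p = 0.00455), a lasting call. Ccn1, the close homologue of Ccn2, was at 445 FPKM in OEA8_69 and 398 FPKM in OEA8_67 with a log2 difference of 0.16 (adjusted p = 0.0733). The calls of Ankrd1 (-0.30) and F3 (0.19) were lost without each of the 6 mutant libraries, and that of Ankrd1 also without OEA8_Ctrl replicates 1 and 2 (adjusted p up to 0.167 and 0.0853). Integrin and focal adhesion genes had 1 higher and 4 lower members of 32, with a median of -0.07. Parvb (beta-parvin, which links integrins to actin) averaged 9.82 ± 0.366 FPKM in OEA8_69 and 13.1 ± 0.728 FPKM in OEA8_67 (log2 difference -0.38 ± 0.05 SE, adjusted p = 0.00296), while Itga11, the collagen-binding integrin subunit of fibroblasts, averaged 2.603 ± 0.127 FPKM in OEA8_69 and 1.603 ± 0.0321 FPKM in OEA8_67 (log2 difference 0.47 ± 0.07 SE, adjusted p = 0.00582), and both calls were lasting. Itgb3 and Itga3 averaged 4.75 and 23.4 FPKM in OEA8_69 against 6.06 and 27.0 FPKM in OEA8_67. With OEA8_67 replicate 1 or 2 or OEA8_69 replicate 1 or 2 left out, 1 member of the list was lower, and without OEA8_Ctrl replicate 3 there were 8.

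Acute-phase and complement genes were called in 1 direction only. Of 18 tested, 7 were higher and 0 lower, with a median of 0.15, and 16 had a difference above 0. Serpina3n, a serine protease inhibitor of the acute phase, stood at 22.7, 21.6 and 19.99 FPKM in OEA8_69, against 14.98, 15.3 and 13.5 FPKM in OEA8_67 (log2 difference 0.52 ± 0.06 SE, adjusted p = 0.00123). Hp (haptoglobin, which binds free hemoglobin) stood at 8.9, 8.12 and 7.85 FPKM in OEA8_69, against 5.11, 5.15 and 5.61 FPKM in OEA8_67 (log2 difference 0.56 ± 0.07 SE, adjusted p = 0.00142). The ranges of the mutants were separate for both genes. C4b, a complement component, was low, at 2.44 FPKM in OEA8_69 and 1.31 FPKM in OEA8_67 (log2 difference 0.57 ± 0.07 SE, adjusted p = 0.00147). Its ratio of the means was 1.86, beside 1.57 for Hp and 1.47 for Serpina3n. C1ra and C1s1, the serine proteases of the first complement complex, averaged 156 FPKM in OEA8_69 and 129 FPKM in OEA8_67 for C1ra and 511 FPKM in OEA8_69 and 402 FPKM in OEA8_67 for C1s1, with log2 differences of 0.27 and 0.34. Lbp (lipopolysaccharide-binding protein), among the largest increases, stood at 34.02, 29.7 and 31.3 FPKM in OEA8_69, against 21.1, 20.4 and 20.1 FPKM in OEA8_67 (log2 difference 0.60 ± 0.05 SE, adjusted p = 0.000214). Serpina3n, Hp, C4b, C1ra and Lbp were lasting calls. Saa2, which is nearly identical to its neighbour Saa1, stood at 6.3, 5.59 and 4.1 FPKM in OEA8_69, against 3.02, 2.45 and 3.29 FPKM in OEA8_67 (log2 difference 0.68 ± 0.14 SE, adjusted p = 0.0237) and was lost without OEA8_67 replicate 1, OEA8_67 replicate 2, OEA8_69 replicate 1 or OEA8_69 replicate 2 (adjusted p up to 0.105). The abundant members Saa3 and Lcn2 averaged 1636 FPKM in OEA8_69 and 1479 FPKM in OEA8_67 for Saa3 and 885 FPKM in OEA8_69 and 801 FPKM in OEA8_67 for Lcn2, and were not called (log2 differences of 0.15 and 0.14), and C3, the central complement protein, was at 0.04. Leaving out single libraries gave 5 to 7 higher members and 0 lower.

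The Ifitm genes, which encode membrane proteins that block virus entry and several of which are neighbours on chromosome 7, all had differences above 0. Of 7 tested, 3 were called higher, with a median of 0.31. Ifitm1 stood at 27.8, 26.8 and 26.6 FPKM in OEA8_69, against 17.2, 13.1 and 15.2 FPKM in OEA8_67 (log2 difference 0.80 ± 0.09 SE, adjusted p = 0.00105). Ifitm6 stood at 6.14, 5.92 and 7.26 FPKM in OEA8_69, against 4.45, 2.83 and 3.14 FPKM in OEA8_67 (log2 difference 0.75 ± 0.12 SE, adjusted p = 0.0056). Neither gene overlapped between the mutants, and both calls were lasting. Ifitm2 averaged 995 ± 46.4 FPKM in OEA8_69 and 798 ± 27.3 FPKM in OEA8_67 (log2 difference 0.32 ± 0.07 SE, adjusted p = 0.0354), a call lost without OEA8_Ctrl replicate 1 or any mutant library (adjusted p up to 0.137). Ifitm3, the most abundant of them, averaged 1687 FPKM in OEA8_69 and 1617 FPKM in OEA8_67 and was not called (0.07, adjusted p = 0.763). Reads of these paralogs may be shared among them.

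The interferon-stimulated genes at large gave no calls like those of Ifitm1 and Ifitm6. Of 46 tested, 0 were called by limma, and 0 had separate libraries, beside 31.5% of all genes. The fit of the 6 mutant libraries alone also called 0, while 1 was lower without OEA8_67 replicate 3. Of the 46, 10 had a difference above 0, with a median of -0.06. This median was -0.31 without OEA8_69 replicate 3 and 0.17 without OEA8_69 replicate 1. The mean log2(FPKM + 1) of the list was 3.26, 3.80 and 4.23 in the OEA8_69 libraries, against 4.33, 3.71 and 3.48 in the OEA8_67 libraries, and 4.27 to 4.62 in OEA8_Ctrl. The spread within each mutant was about as wide as the whole range of the mutants together, and a difference between the mutants was not detectable against this spread. Bst2 (tetherin), which holds budding viruses at the cell surface, had means of 184 FPKM in OEA8_69 and 220.4 FPKM in OEA8_67 (adjusted p = 0.564). The 19 class I antigen presentation genes had 0 called members.

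**Figure D4:**
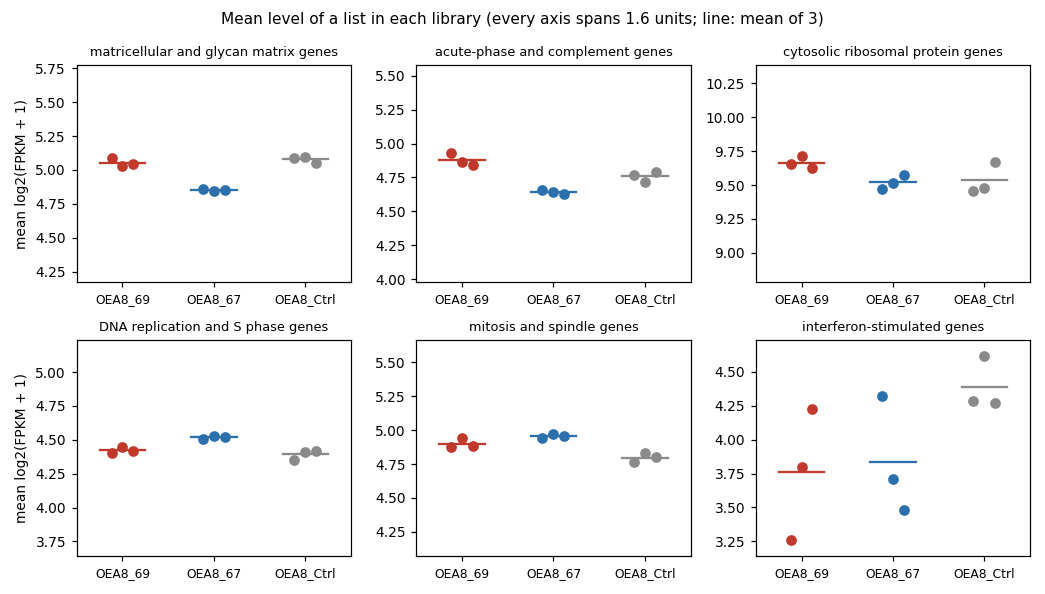
Mean log2(FPKM + 1) over the tested members of 6 lists in each library, with OEA8_69 (red), OEA8_67 (blue) and OEA8_Ctrl (grey) and a line at the mean of the 3 libraries; every vertical axis spans the same number of units. The red points lie above the blue ones for matricellular, acute-phase and ribosomal protein genes and below them for DNA replication genes. For mitosis genes the highest red point (4.940) and the lowest blue point (4.941) nearly touch. The points of the mutants are mixed for interferon-stimulated genes.

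Inflammatory outputs of fibroblasts were called in both directions. Among 27 chemokines and secreted interleukins, 3 were higher and 2 lower. Cxcl12 (SDF-1, which retains hematopoietic stem cells in the marrow) stood at 496, 515 and 483 FPKM in OEA8_69, against 388, 394 and 388 FPKM in OEA8_67 (log2 difference 0.35 ± 0.05 SE, adjusted p = 0.00428), a lasting call with no overlap. The neutrophil attractants Cxcl1 and Cxcl5 averaged 288 FPKM in OEA8_69 and 229 FPKM in OEA8_67 for Cxcl1 and 208 FPKM in OEA8_69 and 161 FPKM in OEA8_67 for Cxcl5 (log2 differences of 0.33 and 0.37). Ccl2, a monocyte attractant, averaged 386 FPKM in OEA8_69 and 443 FPKM in OEA8_67 and was not called (-0.20, adjusted p = 0.0535). The lower members were Lif, a cytokine of the interleukin-6 family (12.8 ± 0.9902 FPKM in OEA8_69 and 16.2 ± 0.859 FPKM in OEA8_67), and Csf1, the macrophage growth factor (196 ± 6.38 FPKM in OEA8_69 and 224 ± 7.98 FPKM in OEA8_67). Cxcl1 was lost without OEA8_67 replicate 1 or 2, and Cxcl5 without OEA8_67 replicate 2 or OEA8_69 replicate 1 or 2 (adjusted p up to 0.0606 and 0.0754). The number of lower members was 0 without any OEA8_67 library and without OEA8_69 replicate 2 or 3. Of 25 target genes of interleukin-17, 3 were higher (Cxcl1, Cxcl5 and Cebpd, a C/EBP transcription factor) and 3 lower (Mmp3, Mmp13 and Fosl1), with a median of -0.04. The 3 lower calls were lasting, while 0 members were higher without OEA8_67 replicate 2. Of 36 TNF and NF-kB response genes, Socs3, the feedback inhibitor of STAT3 signalling, was higher at 61.4, 59.7 and 59.6 FPKM in OEA8_69, against 50.5, 50.9 and 49.1 FPKM in OEA8_67 (log2 difference 0.26 ± 0.04 SE, adjusted p = 0.0056), and Lif and Csf1 were lower. The call of Socs3 was lasting.

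Genes of DNA replication were called lower in OEA8_69, by small amounts. Of 51 DNA replication and S phase genes, 8 were lower and 0 higher, with a median of -0.09, and 46 had a difference below 0. The members were Uhrf1 (which keeps DNA methylation through replication), Mcm4, Mcm2 and Mcm6 (subunits of the replicative helicase), Exo1 (an exonuclease of mismatch repair), Ccne1 (cyclin E1), Chaf1a (a histone chaperone) and Pole2 (a subunit of DNA polymerase epsilon). Uhrf1 stood at 29.8, 30.8 and 29.2 FPKM in OEA8_69, against 35.4, 36.1 and 34.7 FPKM in OEA8_67 (log2 difference -0.24 ± 0.04 SE, adjusted p = 0.0161). Mcm4 stood at 36.8, 37.5 and 38.9 FPKM in OEA8_69, against 43.8, 42.2 and 45.6 FPKM in OEA8_67 (log2 difference -0.21 ± 0.04 SE, adjusted p = 0.02602). The groups did not overlap for either gene, and OEA8_Ctrl averaged 29.3 FPKM for Uhrf1 and 35.3 FPKM for Mcm4, nearer to OEA8_69. The mean log2 level of the list was 4.40, 4.45 and 4.42 in OEA8_69, against 4.51, 4.52 and 4.52 in OEA8_67. The count of lower members was 0 without OEA8_67 replicate 1 or OEA8_69 replicate 1, and 1 without OEA8_67 replicate 2, OEA8_67 replicate 3 or OEA8_69 replicate 2. It was 2 without OEA8_69 replicate 3, 4 without OEA8_Ctrl replicate 1 and 10 without OEA8_Ctrl replicate 3. The 60 mitosis and spindle genes had a median of -0.06, and limma called 0 of them in the 9-library fit and 7 lower and 1 higher in the fit of the 6 mutant libraries. The letters TTTCCCGC or TTTGGCGC of E2F sites, on either strand, stood in the promoter windows of 12 of 41 replication genes (29.3%), beside 339 of 9628 tested genes (3.52%), and in 2 of the 6 called members with a window, Mcm6 and Pole2.

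Ribosomal protein genes and most oxidative phosphorylation genes had differences above 0, mostly without calls. All 80 cytosolic ribosomal protein genes had a difference above 0, with a median of 0.14, and 53 had separate libraries, beside 31.5% of all genes. Rpl10, the only call, averaged 2324 ± 119 FPKM in OEA8_69 and 1940.05 ± 13.1 FPKM in OEA8_67 (log2 difference 0.26 ± 0.06 SE, adjusted p = 0.0488), which was lost without every library but OEA8_Ctrl replicate 3 (adjusted p up to 0.171). The count was 0 without any single mutant library and 29 without OEA8_Ctrl replicate 3, whose mean level of the list, 9.67 on the log2 scale, was as high as in OEA8_69 (9.62 to 9.71), against 9.47 to 9.57 in OEA8_67. Quantile normalization lowered the median of the list to 0.05. Of 74 oxidative phosphorylation genes 62 were above 0, with a median of 0.08 and 2 calls, Ndufa6 and Ndufa7, both subunits of respiratory complex I. Separate libraries were found for 25 of them, and the mean log2 level of the list overlapped between the mutants, at 6.69 to 6.78 in OEA8_69, against 6.62 to 6.71 in OEA8_67. The calls of Ndufa6 and Ndufa7 were lost without each mutant library.

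Transcript length moved with these shifts. Outside both lists, the median difference was 0.03 for 1980 genes with transcripts under 1 kb, 0.02 for 3099 genes of 1 to 2 kb, -0.01 for 4293 genes of 2 to 4 kb and -0.05 for 2092 genes over 4 kb. With the length trend removed from each library, the median was 0.11 for ribosomal protein genes, 0.04 for oxidative phosphorylation genes and -0.09 for DNA replication genes. The acute-phase list then had 7 higher members, the matricellular list 15 higher and 3 lower, and the replication list 8 lower. The median of integrin and focal adhesion genes went from -0.07 to -0.04, with 1 higher and 3 lower. That of basement membrane genes went from -0.06 to -0.0002, with 1 higher and 2 lower.

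**Figure D5:**
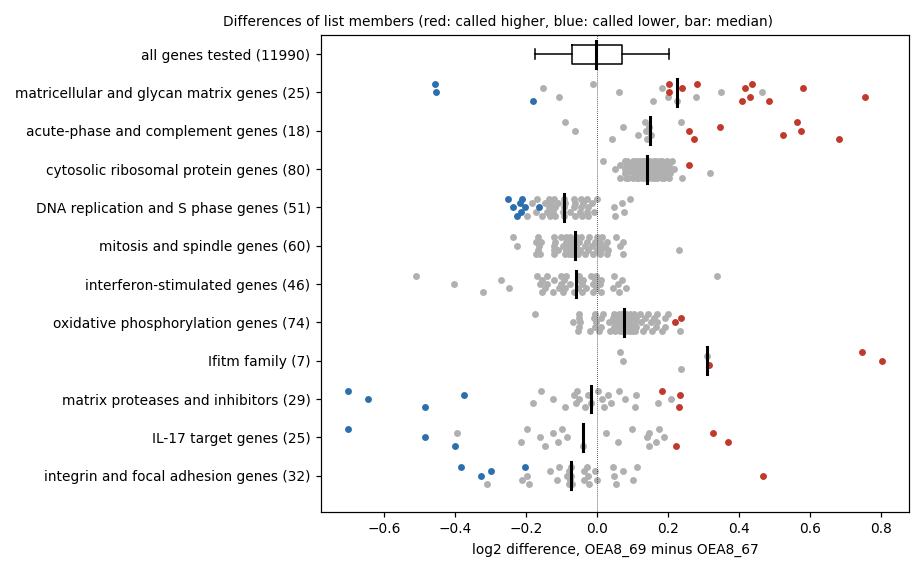
Log2 difference, OEA8_69 minus OEA8_67, of each tested member of 11 lists, with red points for members called higher, blue for called lower, grey for not called, and a bar at the median; the top row shows all 11990 genes as a box from the 25th to the 75th percentile with whiskers at the 5th and 95th. The ribosomal protein genes lie all to the right of 0 although a single one is red, while the matrix protease and interleukin-17 lists reach far in both directions around medians near 0.

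Markers and regulators of mesenchymal cells were called singly or in small numbers. Thy1 (CD90, a surface marker of fibroblast subsets) was low and stood at 2.23, 2.43 and 2.62 FPKM in OEA8_69, against 1.06, 0.96 and 1.09 FPKM in OEA8_67. All OEA8_69 libraries were above all OEA8_67 libraries, and the log2 difference was 0.75 ± 0.08 (SE), adjusted p = 0.000604. Of the 19 fibroblast markers tested, 5 were higher (26.3%, beside 1.88% of all genes) and 0 lower, with a median of 0.12. The 5 were Thy1, Dcn, Mmp2, Postn and Col3a1, and Thy1 alone was a lasting call. The count was 1 without OEA8_67 replicate 2, OEA8_67 replicate 3 or OEA8_69 replicate 1. Quantile normalization gave 3 higher members and lowered the median to 0.04. Prrx2, a homeobox gene of limb mesenchyme, stood at 193, 199 and 206 FPKM in OEA8_69, against 152, 160.2 and 151 FPKM in OEA8_67 (log2 difference 0.37 ± 0.06 SE, adjusted p = 0.00856), a lasting call. Of 34 retinoic acid and skeletogenic genes, Prrx2, Crabp1 (which binds retinoic acid in the cytosol) and Sox9 (the chondrogenic factor) were higher and Dhrs3 lower, and Prrx2 was the only one called without each of OEA8_67 replicates 1, 2 and 3. In the Wnt pathway, 3 of 39 genes were higher and 1 lower. Sfrp2, a secreted Wnt modulator, averaged 5.64 ± 0.458 FPKM in OEA8_69 and 3.72 ± 0.117 FPKM in OEA8_67 (log2 difference 0.49 ± 0.06 SE, adjusted p = 0.00223), and Nkd2, an inhibitor of Dishevelled, averaged 29.5 ± 2.49 FPKM in OEA8_69 and 37.7 ± 1.203 FPKM in OEA8_67 (log2 difference -0.35 ± 0.06 SE, adjusted p = 0.00886), both lasting. Among 16 imprinted genes Mest, Igf2 and Dcn were higher, and Igf2, the fetal growth factor, averaged 70.5 ± 2.98 FPKM in OEA8_69 and 54.9 ± 1.197 FPKM in OEA8_67 (log2 difference 0.35 ± 0.05 SE, adjusted p = 0.00209), also lasting. Of 20 heat shock genes, Hsp90aa1 and Hspa4l were lower. Hsp90aa1, the inducible cytosolic chaperone, averaged 180.5 ± 4.23 FPKM in OEA8_69 and 216 ± 9.01 FPKM in OEA8_67 (log2 difference -0.26 ± 0.04 SE, adjusted p = 0.00824), which was lost without OEA8_67 replicate 1 (adjusted p = 0.0530). Dbp, a clock output gene, Pfkfb3, an activator of glycolysis, and Osgin1, an NRF2 target, were lasting calls, with log2 differences of 0.35, 0.31 and 0.39. The Notch and Hox lists had 0 called members of 15 and 10, and 0 also at each single library left out except for 1 lower Notch gene without OEA8_Ctrl replicate 3.

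Of the 3 endothelial markers that were tested, Erg and Cdh5 were lower in OEA8_69 and Flt1, a VEGF receptor, was not called (log2 difference -0.14, adjusted p = 0.407). The summed level of the 12 endothelial markers was 6.45 to 7.96 FPKM in OEA8_69, against 9.59 to 11.5 FPKM in OEA8_67, of which Erg was 3.17 to 3.88 FPKM in OEA8_69 and 5.56 to 6.87 FPKM in OEA8_67. The defining markers Pecam1, Vwf and Kdr were at or below 0.21 FPKM in all mutant libraries, and Pecam1 averaged 0.137 FPKM in OEA8_69 and 0.107 FPKM in OEA8_67. Cdh5 (VE-cadherin) stood at 0.24, 0.47 and 0.49 FPKM in OEA8_69, against 0.78, 0.88 and 0.73 FPKM in OEA8_67, against 11.98, 11.1 and 10.9 FPKM in OEA8_Ctrl, with a log2 difference of -0.36 ± 0.08 (SE), adjusted p = 0.0374. Myct1, an endothelial membrane protein, stood at 1.11, 1.05 and 0.78 FPKM in OEA8_69, against 2.04, 1.73 and 1.86 FPKM in OEA8_67 (log2 difference -0.54 ± 0.08 SE, adjusted p = 0.00385), against 7.22 to 7.84 FPKM in OEA8_Ctrl. The libraries of the mutants did not overlap in either gene. Erg and Myct1 were lasting calls, whereas Cdh5 was lost without OEA8_Ctrl replicate 1 and without each mutant library (adjusted p up to 0.137). In a culture, fewer cells of a type and less RNA per cell cannot be told apart.

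The 23 genes that led the comparisons of the mutants with OEA8_Ctrl were chosen from these libraries, so their values are given side by side. Between the mutants, 6 were higher and 6 lower in OEA8_69. Nptx1 averaged 0.61 ± 0.147 FPKM in OEA8_69 and 0.9 ± 0.161 FPKM in OEA8_67, against 19.97 FPKM in OEA8_Ctrl, and was not called between the mutants (adjusted p = 0.176). Lmo1, Apln and Adgrg1, which averaged 8.28, 11.7 and 12.7 FPKM in OEA8_Ctrl, were at 1.19, 3.26 and 2.75 FPKM in OEA8_69 and at 1.57, 2.77 and 3.30 FPKM in OEA8_67 and were not called either. Of those that did differ, Crabp1 averaged 219.9 ± 7.75 FPKM in OEA8_69 and 178 ± 6.799 FPKM in OEA8_67 and 104 FPKM in OEA8_Ctrl (log2 difference 0.30 ± 0.06 SE, adjusted p = 0.0205), and Ctla2a averaged 5.803 ± 0.185 FPKM in OEA8_69 and 7.78 ± 0.966 FPKM in OEA8_67 and 24.6 FPKM in OEA8_Ctrl (log2 difference -0.36 ± 0.07 SE, adjusted p = 0.023). Crabp1 was lost without any OEA8_67 library and without OEA8_69 replicate 1 or 2, and Ctla2a without OEA8_67 replicate 3 and without each OEA8_69 library (adjusted p up to 0.0979 and 0.0946). Cd24a, Ogn, Erg, Myct1 and AW551984, a gene named only by its clone, were lasting. Over all 379 called genes, the OEA8_Ctrl mean lay between the mutants for 150 of the 226 higher genes (66.4%) and 67 of the 153 lower genes (43.8%), beside 29.3% of all genes. The OEA8_67 mean was the middle one for 70 of the lower genes (45.8%), as it was for Mmp3, Mmp13, Tnc, Col4a1 and Erg. The values of the mutants set both the call and this order, so the shares are given as a description.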

How the data were processed

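RNA-seq was performed on 9 mouse libraries, and the 3 of OEA8_69 were compared with the 3 of OEA8_67, with groups from the sample labels. TRIzol was used for total RNA, and the libraries were run on a BGISEQ-500 (DNBSEQ). Alignment to mm10 with HISAT2 2.0.4 and Bowtie2 2.2.5 is given in the submitters' processing notes, and RSEM in the study's methods. The deposited values are FPKM, computed by the authors per gene and library and given with 2 decimals. FPKM divides by the mapped fragments of a library, so a rise of abundant genes lowers all others, and read counts were not used here, so the depth and its counting error are unknown.

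Values were transformed to log2(FPKM + 1). All 9 libraries entered 1 limma 3.58.1 fit (R 4.3.3) with trended empirical Bayes moderation and 6 residual degrees of freedom, and the contrast was OEA8_69 minus OEA8_67. Benjamini-Hochberg adjustment ran over the 11990 genes, and genes under 0.05 were called. An exact permutation test of 3 against 3 libraries cannot give less than 0.1. The fit was tested on simulated data. The 36 pathway lists and 10 marker lists, the comparison and the genes named were chosen with earlier results of these data known. The genes named were S100a8, S100a9, the 12 called genes with the largest increase and the 12 with the largest decrease that reached 5 FPKM in the higher mutant and had separate libraries (without predicted and clone-named genes), up to 4 called members of each list and the genes leading against OEA8_Ctrl. Other list members named in the text were chosen after their values were seen, and 1 called gene is not reported here by name. Alternatives were pseudocounts of 0.1 and 0.5 FPKM, a filter at 5 FPKM or none, quantile normalization, scaling by the median of ratios, the 6 mutant libraries alone, untrended or robust moderation, a replicate block, a minimum log2 difference of 1 and each library left out. Removal of a transcript length trend (lowess per library, median length of the coding transcripts in GENCODE M21, 11618 genes) was added after seeing the data. Positions and promoters are from RefSeq (GRCm38.p6, the assembly of mm10), in which 19179 of 19240 gene identifiers matched and 9628 tested genes had a promoter window. Sequences, motifs and figures were handled in Python 3.11.15 with matplotlib 3.10.9.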

Additional observations from a re-analysis of the deposited data

How the results depend on the processing

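Of the 379 calls, 226 higher and 153 lower, no called gene changed direction under any alternative in which it was tested. The counts were within 1.5 times of these with pseudocounts of 0.1 or 0.5 FPKM, a filter at 5 FPKM, both scalings, untrended or robust moderation, and the transcript length trend removed. Without a filter, limma called 219 genes (133 higher, 86 lower) of 18003. With only the 6 mutant libraries it called 977 (553 higher, 424 lower), and with a minimum log2 difference of 1 it called 1 (1 higher, 0 lower), by construction. Leaving out single libraries gave 122 to 1025 calls, 82 to 583 higher and 40 to 442 lower. With the replicate number as a replicate block, 241 genes were called, 161 higher and 80 lower. Whether the numbers pair the samples could not be decided. Deviations of same-numbered libraries correlated at -0.21, 0.02 and -0.25. OEA8_69 replicate 1 correlated at 0.28 with OEA8_67 replicate 3, and OEA8_69 replicate 3 at 0.20 with OEA8_67 replicate 1. With 3 libraries per mutant the deviations depend on each other, so these values cannot settle a pairing. Apart from the fit without a filter and those leaving libraries out, whose numbers of genes tested or samples differ, the causes were not tested. Under the 11 alternatives other than the minimum difference and the single libraries, 126 genes were called in each, and 77 in all 20 fits. The depth is unknown, so the limit it sets on low genes cannot be given.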

Other observations

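Several lists had few calls in number, though in some of them the share called was above that over all genes. Over all genes tested, 1.88% were called higher and 1.28% lower. Glycolysis and hypoxia genes were near the share of higher genes (2.56%). TGF-beta and BMP pathway genes were near it too (2.17%), but 6.52% of them were lower, above the share over all genes. Of 36 senescence and secretory genes 4 were higher and 4 lower (11.1% each). These were mostly the proteases, inhibitors and chemokines described above, with Mmp10 at 0.893 FPKM in OEA8_69 and 1.93 FPKM in OEA8_67. Of 46 TGF-beta and BMP pathway genes, Id3 was higher (265 FPKM in OEA8_69, 226 FPKM in OEA8_67) and 3 were lower, among them Ltbp1 and Fst. Of 31 p53 targets and cyclin-dependent kinase inhibitors, Sesn1 was higher and Mdm2, Ccng1 and Polk were lower (9.68%). Cdkn1a, the inhibitor p21, averaged 161 FPKM in OEA8_69 and 179 FPKM in OEA8_67 and was not called (limma, adjusted p = 0.122). Of 33 NRF2 and glutathione genes, Osgin1 and Gstm1 were higher and Txnrd1 was lower. Of 35 cholesterol and fatty acid synthesis genes, Ebp was higher and Fasn lower, and of 37 ATF4 and unfolded protein response genes Hyou1 was lower. Smooth muscle contractile genes had 0 higher and 2 lower (Cnn1 and Itga8) of 23, or 8.70% lower. Insulin-like growth factor genes had 2 higher of 17 (Igf2 and Igfbp4), or 11.8%. Glycolysis and hypoxia genes had 1 higher of 39 and circadian clock genes 1 higher of 19.

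Among the markers of other cells, calls beside the endothelial ones were made on the neural list and on the pericyte and smooth muscle list. Stmn2, on the neural list, was higher, at 12.2, 14.6 and 12.9 FPKM in OEA8_69, against 9.02, 10.4 and 10.3 FPKM in OEA8_67 and 6.79 to 7.96 FPKM in OEA8_Ctrl. The call was lost without any OEA8_67 library or without OEA8_69 replicate 2 or 3 (adjusted p up to 0.0944). Myeloid, lymphoid, erythroid and megakaryocyte, epithelial and adipocyte markers had 0 called members of 5, 1, 2, 0 and 4 tested, and pericyte and smooth muscle markers had 2 lower of 7 (Cnn1 and Mcam).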
